A study of Caenorhabditis elegans with 2 samples.

Results

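The 19S lid is the outer part of the cap of the 26S proteasome, and the genes described here encode 8 of its subunits in Caenorhabditis elegans: rpn-3, rpn-5, rpn-6.1, rpn-7, rpn-8, rpn-9, rpn-11 and rpn-12. They were taken by gene name from the Ensembl annotation, 8 of 19973 nuclear protein-coding genes, and all 8 names were found. For each gene, binding was read from chromatin immunoprecipitation sequencing (ChIP-seq) peaks whose summit lay in the promoter, here any position between 1000 bp before and 200 bp after one of the gene's annotated 5' ends. The chromatin came from whole L2 larvae of both sexes, age not stated, of strain OP178, whose genotype is unc-119(ed3) III; wgIs178. Per the labels the insertion makes SKN-1 with GFP-FLAG fused to its C-terminal end. The antibody is given as skn-1, whereas the free-text description gives PHA-4. Both libraries share this genotype and stage, they are biological replicates 1 and 2 of 1 group, and no untagged strain or second condition was analysed here. Only occupancy of chromatin was measured, not the expression of the genes.

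The proteasome degrades proteins marked with ubiquitin. Its 20S core cuts them, the 19S base unfolds and feeds them, and the lid removes the ubiquitin chain. In the lid, RPN-11 is the metalloprotease that cuts ubiquitin off the substrate and RPN-8 is its partner, and both carry an MPN domain. RPN-3, RPN-5, RPN-6.1, RPN-7, RPN-9 and RPN-12 are PCI domain subunits, which form the horseshoe-shaped scaffold of the lid. SKN-1 is related to bZIP factors, lacks a leucine zipper and binds DNA as a monomer, and its isoform SKN-1A raises proteasome gene expression when the proteasome is impaired. The isoforms share their C terminus, so a tag there does not tell them apart.

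The sequences under the strongest optimal summits are shown first, for every lid gene except rpn-8, because they hold the words discussed below. Each is printed 5' to 3' along the lid gene from the WBcel235 genome (the same assembly as ce11). It reaches up to 85 bases to each side of the summit and is cut where an annotated untranslated region starts. Capitals mark the SKN-1 core, ATCAT or GTCAT on either strand, and the full 8-base SKN-1 word where it is complete. At rpn-3 and rpn-7 the run of capitals is made of overlapping cores and is not the full word. The first 3 carry the 3 strongest lid peaks, at rpn-12 (chrII:11652890-11653060, plus strand), rpn-3 (chrIII:8447101-8447271, plus strand) and rpn-5 (chrII:4698428-4698546, minus strand).
rpn-12: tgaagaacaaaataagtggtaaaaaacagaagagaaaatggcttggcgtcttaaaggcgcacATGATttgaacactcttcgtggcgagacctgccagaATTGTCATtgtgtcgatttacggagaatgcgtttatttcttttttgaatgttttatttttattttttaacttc
rpn-3: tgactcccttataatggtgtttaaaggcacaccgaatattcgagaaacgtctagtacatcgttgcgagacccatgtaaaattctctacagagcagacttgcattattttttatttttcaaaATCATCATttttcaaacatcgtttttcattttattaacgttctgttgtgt
rpn-5: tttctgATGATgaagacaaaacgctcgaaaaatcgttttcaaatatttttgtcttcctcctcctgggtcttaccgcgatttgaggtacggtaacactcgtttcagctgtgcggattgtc
The next 3 are shown for their words, at rpn-7 (chrIV:9316216-9316327, plus strand), rpn-11 (chrII:4044510-4044539, minus strand, 30 bases only, since the summit lies in its 5' untranslated region) and rpn-6.1 (chrIII:6961298-6961468, minus strand).
rpn-7: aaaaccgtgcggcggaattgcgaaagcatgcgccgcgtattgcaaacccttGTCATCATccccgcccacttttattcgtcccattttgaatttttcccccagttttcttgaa
rpn-11: tgtttgcgtaccccgcaATTGTCATcctca
rpn-6.1: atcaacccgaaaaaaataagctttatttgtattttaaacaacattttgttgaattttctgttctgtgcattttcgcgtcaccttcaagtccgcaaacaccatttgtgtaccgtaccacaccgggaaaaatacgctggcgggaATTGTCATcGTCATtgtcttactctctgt
The last is the only lid promoter of the 8 with no core within 100 bp of its summit, rpn-9 (chrII:11239011-11239181, minus strand).
rpn-9: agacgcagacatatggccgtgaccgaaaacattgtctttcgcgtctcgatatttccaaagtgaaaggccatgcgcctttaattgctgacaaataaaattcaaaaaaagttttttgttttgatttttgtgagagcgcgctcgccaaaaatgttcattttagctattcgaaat

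All 8 lid genes had a summit of the optimal list in the promoter. This list, which the authors made from both replicates with the irreproducible discovery rate (IDR) procedure, held 870 nuclear peaks, and 3.89% of all protein-coding genes had such a summit (777 genes). The median of the 8 strongest summits was a deposited signal of 144, against 55.2 over the 777 genes. Signal is the value deposited with each peak, on the scale of its list, and it has no replicate error. Ranks below are by signal among nuclear peaks of a list. The members and the comparison lists were chosen with earlier results of these data known, so these counts are a description with no test. The lid genes' promoter windows covered a median of 1205 bp, against 1201 bp over all genes, and reached 2262 bp at rpn-6.1. A single annotated 5' end was found at 50% of lid genes, against 72.6% of all genes.

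The lid genes fell into a strong and a weak set, drawn here from the optimal signals. The strong set had 5 genes among the strongest 50 optimal peaks, a limit that 44 protein-coding genes met in all. At the top was rpn-12, whose product is the last subunit to join the lid in yeast, with a signal of 371 and rank 5. Next was rpn-3 with a signal of 324 and rank 6. Then came rpn-5 (signal 174, rank 17), rpn-7 (signal 152, rank 28) and rpn-11, the deubiquitinase (signal 137, rank 40). Only 2 of all 777 genes had a stronger promoter peak than rpn-12. The weak set had 3 genes near or below the median of the list, which was 54.1, only rpn-8 being below. It held rpn-6.1, whose product clamps lid and core together in yeast and whose raised expression increases proteasome activity in this worm, with a signal of 63.3 and rank 276. It also held rpn-9 (signal 58.1, rank 366) and rpn-8 (signal 45.2, rank 765), the latter close to the lowest nuclear signal of 43.2. The 2 MPN genes were thus in different sets, rpn-11 in the strong and rpn-8 in the weak one, and so were the PCI genes, 4 of 6 of which were strong.

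The order of the genes was nearly the same in the 2 replicates. In replicate 1, rpn-12 had a signal of 265 (rank 5), and in replicate 2 a signal of 107 (rank 5). For rpn-3 the signals were 239 (rank 6) and 85.9 (rank 7), and for rpn-5 they were 112 (rank 23) and 58.97 (rank 14), replicate 1 first. The replicates' lists have different scales, with medians of 39.2 and 18.9 over the strongest 870 peaks of each, so each signal was divided by that median. On this scale rpn-12 stood at 6.75 in replicate 1 and 5.68 in replicate 2, and rpn-3 at 6.09 and 4.55. The optimal list is made from these same libraries, so separate sets in the replicates are no independent support. The strong set did not overlap the weak one in either replicate. Its lowest values were 2.16 for rpn-11 in replicate 1 and 2.45 for rpn-7 in replicate 2, and the highest weak values were 1.23 for rpn-6.1 and 0.909 for rpn-9. Of neighbours in the order, the replicate values overlapped between rpn-12 and rpn-3, between rpn-7 and rpn-11 and between rpn-6.1 and rpn-9. Among these, rpn-12 was above rpn-3 within each replicate, whereas the other 2 pairs changed order. For instance, rpn-7 was above rpn-11 in replicate 1 (2.70 against 2.16) and below it in replicate 2 (2.45 against 2.74). The replicate values of rpn-3 and rpn-5, rpn-5 and rpn-7, rpn-11 and rpn-6.1, and rpn-9 and rpn-8 did not overlap. With 2 replicates, the order of neighbours was not tested.

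**Figure D1:**
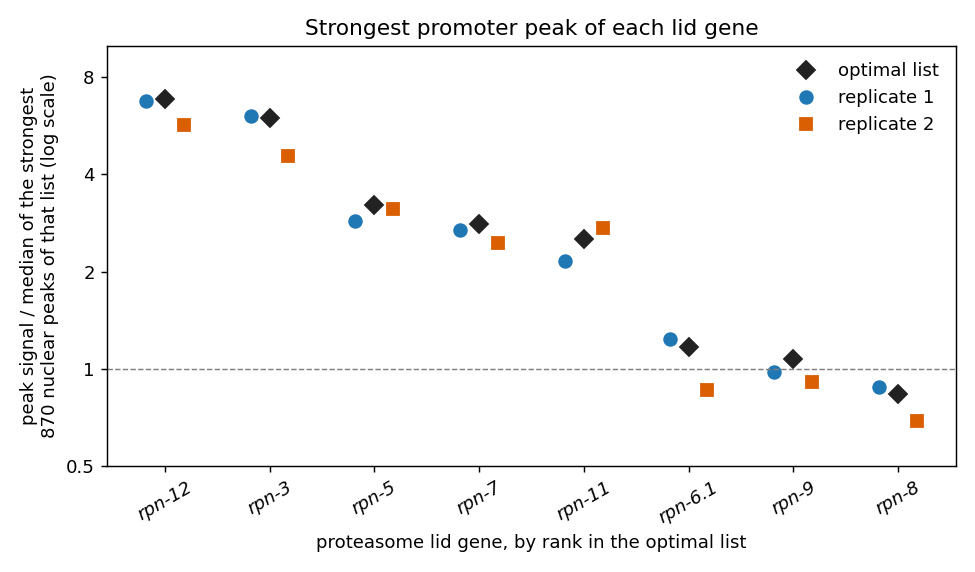
Strongest promoter peak of each lid gene in the optimal list and in both replicates, as deposited signal divided by the median of the strongest 870 nuclear peaks of that list (log axis), with genes in order of optimal rank. The points of rpn-12, rpn-3, rpn-5, rpn-7 and rpn-11 lie at 2.16 or higher in all 3 lists, and those of rpn-6.1, rpn-9 and rpn-8 at 1.23 or lower.

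Counted per promoter, every lid gene except rpn-8 had a summit among the strongest peaks of both replicates. The strong and weak sets were drawn from signals of these same libraries, so this count is not independent of them. A summit among replicate 1's own strongest 870 nuclear peaks lay in the promoter of 8 lid genes, against 3.79% of all genes, and one among replicate 2's lay in 7, against 3.71%. Both were present at 7, against 2.07% of all genes. The exception was rpn-8, at rank 643 in replicate 1 and rank 1350 in replicate 2, where its deposited q was 0.0120. In the relaxed lists, which hold background by design, any summit was found at all 8 genes, against 29.2% of all genes in the pooled list, 41.0% in replicate 1 and 43.5% in replicate 2.

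The positions were close between replicates. The 2 replicates' summits nearest to a lid gene's strongest optimal summit lay 1 to 33 bp apart, with a median of 22 bp, against a median of 28 bp over the 851 nuclear optimal summits with a summit of both replicates within 200 bp. The closest were rpn-9 (1 bp), rpn-3 (2 bp) and rpn-5 (3 bp), and the farthest was rpn-7 (33 bp). Counted per site, 6 of the 8 strongest optimal summits had a summit of each replicate's strongest 870 within 100 bp, against 390 of all 870 nuclear optimal summits (44.8%). The 2 without were at rpn-8 and rpn-6.1. A second, weaker optimal summit of rpn-6.1 did have such support, at rank 759 in replicate 1 and rank 708 in replicate 2.

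The 8 genes lie on 4 chromosomes, at these positions in ce11. On chromosome II, rpn-11 (WBGene00004467) spans 4043055 to 4044546 and rpn-5 (WBGene00004461) 4696418 to 4698427, both on the minus strand, with summits at 4044525 and 4698461. Also on chromosome II, rpn-9 (WBGene00004465) spans 11237447 to 11238919 on the minus strand and rpn-12 (WBGene00004468) 11653124 to 11654192 on the plus strand, with summits at 11239096 and 11652975. On chromosome III, rpn-6.1 (WBGene00004462) spans 6959110 to 6962001 on the minus strand and rpn-3 (WBGene00004460) 8447353 to 8449346 on the plus strand, with strongest summits at 6961383 and 8447186. On chromosome IV, rpn-7 (WBGene00004463) spans 9316631 to 9318632 on the plus strand, with its summit at 9316242. On chromosome I, rpn-8 (WBGene00004464) spans 4175319 to 4177271 on the plus strand, with its summit at 4175073. No 2 lid genes thus shared a peak. Of the 8 strongest summits, 6 lay between annotated protein-coding genes, that of rpn-6.1 in its own intron and that of rpn-11 in its own 5' untranslated region.

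The strongest summit lay upstream of the nearest annotated 5' end at 7 of 8 lid genes. Over the 777 genes with an optimal promoter summit the share was 95.5%, and the window itself reaches farther upstream than downstream. The distance from the strongest summit to the nearest annotated 5' end was 149 bp at rpn-12, 167 bp at rpn-3, 177 bp at rpn-9, 246 bp at rpn-8 and 389 bp at rpn-7, all upstream. At rpn-5 it was 34 bp upstream of the longer transcript and 167 bp upstream of the shorter one. At rpn-11 the summit lay 21 bp inside the longer transcript, in its 5' untranslated region, and 195 bp upstream of the shorter one. The median over the 8 genes was 172 bp upstream, against 228 bp upstream over the 777 genes with an optimal promoter summit. Since many worm transcripts are trans-spliced, an annotated 5' end may be a splice acceptor and not a transcription start. Measured from the first codon instead, which is not affected by this, 5 genes lay within a narrow band: rpn-12 at 152 bp upstream, rpn-5 at 169 bp, rpn-3 at 171 bp, rpn-9 at 178 bp and rpn-11 at 201 bp. The band was set after these values were seen, and 13.6% of the 777 genes had their strongest summit in it. Of the remaining genes, rpn-8 had its summit 250 bp and rpn-7 401 bp upstream of the first codon. That of rpn-6.1 was 451 bp upstream of the first codon of isoform b and 570 bp downstream of that of isoform a.

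The gene rpn-6.1 had 2 optimal summits and differed from the others in layout. The stronger one (signal 63.3, rank 276) lay in an intron of isoform a, 618 bp downstream of that isoform's 5' end and 443 bp upstream of the 5' end of isoform b. The weaker one (signal 45.2, rank 767) lay 381 bp upstream of isoform a, in the coding sequence of the neighbouring gene F57B9.1. The replicates ordered the 2 sites differently. In replicate 1 the intronic site was stronger (signal 48.3, rank 232, against signal 32.6, rank 759), and in replicate 2 the outer site was (signal 16.2, rank 708, against signal 14.9, rank 898). In the plot of signals, the replicate 2 point of rpn-6.1 is therefore the outer site.

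A divergent partner shared the promoter at 7 of the 8 genes, rpn-11 being the exception. A partner is a protein-coding gene on the other strand that starts within 1000 bp and points away, an arrangement found at 18.8% of all protein-coding genes and at 43.9% of the 777 genes with an optimal promoter summit. The second share is raised by counting, since a summit between 2 such genes counts for both. The partners were rad-23 at rpn-12, hsp-110 at rpn-3, scc-1 at rpn-5, F49C12.9 at rpn-7, F57B9.1 at rpn-6.1, T06D8.9 at rpn-9 and mrps-6 at rpn-8. RAD-23 is a shuttle that brings ubiquitinated proteins to the proteasome, HSP-110 a cytosolic chaperone, SCC-1 a cohesin subunit and MRPS-6 a protein of the mitochondrial ribosome. The strongest optimal summit fell in the partner's promoter too in all 7 cases, so that the gene it belongs to cannot be told from the peak.

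The strongest summit was nearer to the lid gene in 6 of these 7 pairs. Over all protein-coding genes, 777 had an optimal promoter summit, and 578 did when a summit counted only for the nearest 5' end. Those counts are not limited to divergent pairs, so the 6 of 7 has no matching share over all genes beside it and was not tested. At rpn-12 the strongest summit lay 149 bp from the lid gene and 246 bp from rad-23, at rpn-3 167 bp and 277 bp from hsp-110, and at rpn-5 34 bp and 260 bp from scc-1. At rpn-8 the distances were 246 bp and 299 bp from mrps-6, and at rpn-9 177 bp and 501 bp from T06D8.9. At rpn-3 a noncoding gene, C30C11.14, named after its position was seen, lay in between, with its 5' end 91 bp from the summit. At rpn-6.1 the stronger summit, in the intron, was 443 bp from the lid gene's isoform b 5' end and 707 bp from F57B9.1. The weaker summit, which was the stronger site in replicate 2, was nearer to F57B9.1, at 42 bp against 381 bp. At rpn-7 the strongest summit was nearer to the partner, 389 bp from the lid gene and 27 bp upstream of F49C12.9.

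**Figure D2:**
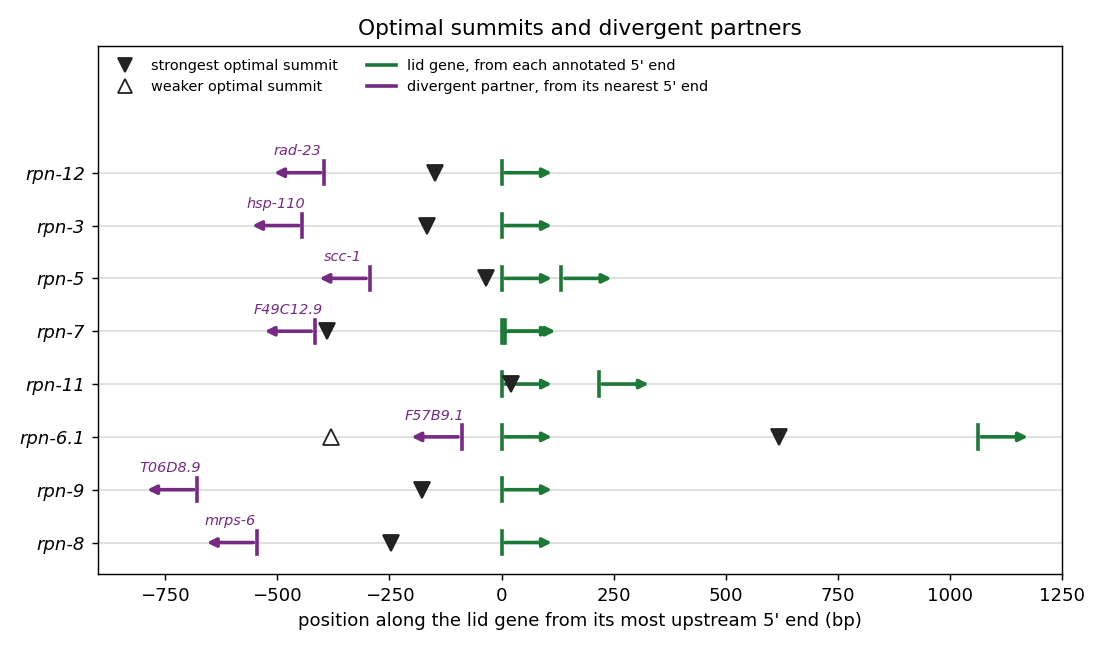
Optimal summits (triangles) and divergent partners (purple arrows) drawn to scale along each lid gene, in bp from its most upstream annotated 5' end, with further 5' ends marked by green bars. Summits sit between the divergent genes at rpn-12, rpn-3, rpn-5, rpn-7, rpn-9 and rpn-8, while rpn-11 has no partner and the stronger rpn-6.1 summit lies inside the gene at 618 bp.

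The SKN-1 core was within 100 bp of the strongest summit at 7 of 8 lid genes, a share to be read against 69.9% of all 870 nuclear optimal summits and 54.4% of windows of the same 201 bp directly upstream of all protein-coding genes. The full word (A or T, A or T, T, A or G, then TCAT, on either strand) was present at 4 lid genes, against 27.6% of optimal summits and 11.2% of upstream windows. These were rpn-12, rpn-11, rpn-6.1 and rpn-8, which span the strongest and the weakest of the lid peaks. At rpn-11 the centre of the word lay 6.5 bp from the summit, at rpn-12 16.5 bp, at rpn-8 33.5 bp and at rpn-6.1 60.5 bp. At 3 of them (rpn-12, rpn-11 and rpn-6.1) the word had the same spelling, ATTGTCAT, and the same direction as the gene. This spelling was noticed after the sites were seen, and it was present at 6.32% of optimal summits and 1.25% of upstream windows.

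The other 3 strong genes carried a doubled TCAT and not the full word. The doubled TCAT is the 7-base word TCATCAT, in which TCAT occurs in 2 overlapping copies, with the reverse complement ATGATGA. It was present at rpn-3, rpn-5 and rpn-7 and at no other lid gene, against 22.2% of optimal summits and 5.45% of upstream windows. It shares letters with the core by construction, and at rpn-5 it holds a single core, ATCAT. It was taken from an earlier search of all these peaks. Its centre lay 29 bp downstream of the summit at rpn-7, 40 bp downstream at rpn-3 and 76 bp upstream at rpn-5, where it pointed the other way along the gene. The full word or the doubled TCAT was present at 7 lid genes, against 37.9% of optimal summits, and both at none, against 11.8%, a description of words chosen with these peaks known. CTGCGTC, from the same earlier search, was present at rpn-9 alone, 81 bp upstream of the summit, against 12.3% of optimal summits. The GATA word TGATAA was at none of the 8 strongest summits, against 39.2% of optimal summits and 22.8% of upstream windows. It lay 83.5 bp from the weaker rpn-6.1 summit, which was the stronger site in replicate 2. The bZIP word, TGACTCA or TGAGTCA, was at none of the 8 strongest summits, against 3.56% of optimal summits. A match is a description of letters and not a binding site, and a missing match says only that these letters are not in the window.

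**Figure D3:**
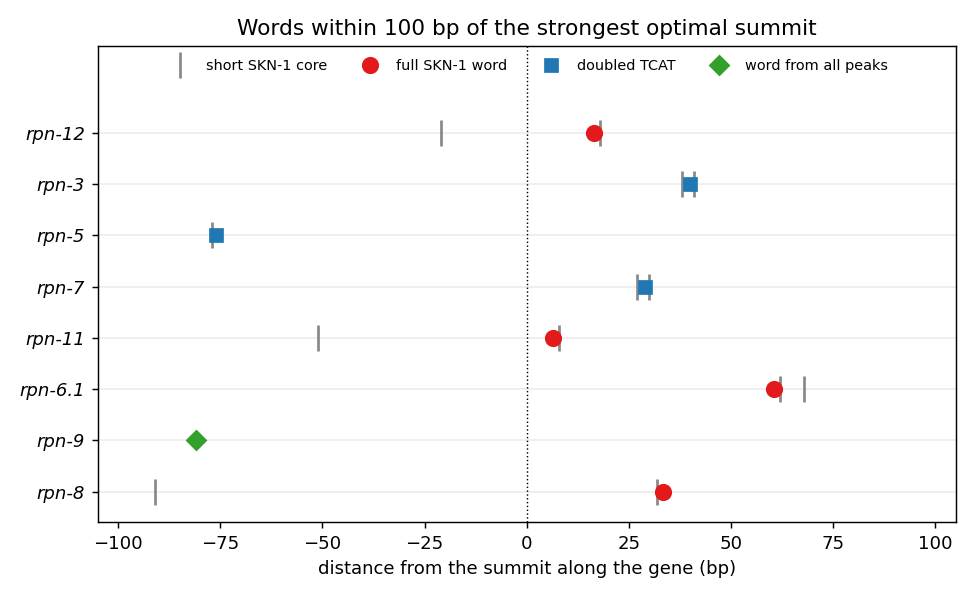
Position of each word relative to the strongest optimal summit along each lid gene, in bp, within 100 bp to each side. Red circles (full SKN-1 word) stand at rpn-12, rpn-11, rpn-6.1 and rpn-8, blue squares (doubled TCAT) at rpn-3, rpn-5 and rpn-7, and rpn-9 has neither.

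Peak width differed within the strong set. The optimal list has a full width of 340 bp, and 15 of its 870 nuclear peaks were narrower. The peaks of rpn-12 (198 bp), rpn-3 (178 bp) and rpn-5 (85 bp) were among these 15, and the other lid peaks had the full width. In the replicates the peaks of rpn-12 (186 bp and 160 bp) and rpn-3 (167 bp and 90 bp) were narrow as well, whereas that of rpn-5 had the full width of 324 bp in replicate 1 and 344 bp in replicate 2. How narrow peaks arose is not given in the sources used here. When the narrow peaks were left out, a setting added once the widths had been seen, 5 of 8 lid genes kept an optimal promoter summit, and 3.81% of all genes did.

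The rest of the proteasome gives the setting. Of the 10 genes of the 19S base, which holds the ATPases, 9 had an optimal promoter summit, with a median rank of 27 among them, against a median rank of 34 for the lid. They were led by rpt-2 (signal 262), rpn-1 (255) and rpt-3 (177), and rpn-10, a ubiquitin receptor, had no summit in the optimal or pooled list. All 7 alpha ring genes of the 20S core had one, with a median rank of 133, led by pas-5 (146), pas-4 (108) and pas-3 (105.1). Of the 7 beta ring genes 5 had one, with a median rank of 130, led by pbs-7 (142), pbs-3 (94.8) and pbs-4 (85.3). The beta genes without one were pbs-5 and pbs-6, the latter with a pooled summit at rank 2504 and a q of 0.100. Peaks among the strongest 50 were found at 5 lid and 6 base genes and at 1 gene each of the alpha and beta rings. Across these 4 groups, rpn-12 and rpn-3 had the highest signals and rpn-8 the lowest among genes with an optimal promoter summit. These differences between groups were not tested.

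**Figure D4:**
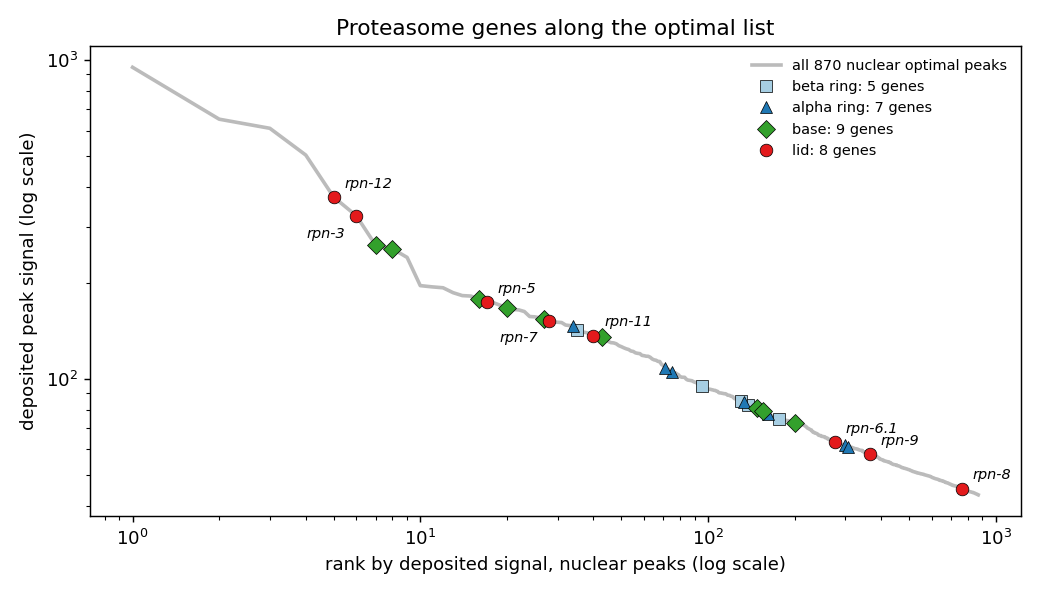
Deposited signal of all 870 nuclear optimal peaks against their rank (both axes log), with proteasome genes marked by their strongest promoter peak. Lid genes run from rank 5 (rpn-12, signal 371) to rank 765 (rpn-8, signal 45.2), and base genes end at rank 200.

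Genes linked to the lid by association or by descent were sparser. The small lid subunit gene dss-1 and rpn-6.2, a second gene related to rpn-6.1, had no summit in the optimal or the pooled list. The genes of 2 proteasome-associated deubiquitinases had an optimal one, usp-14 (signal 66.4, rank 243) and ubh-4 (signal 55.8, rank 400). These 4 genes thus had a share of 50%, against 3.89% of all genes. The COP9 signalosome and the translation factor eIF3 are built from the same PCI and MPN folds as the lid. None of 6 signalosome genes had an optimal promoter summit, and 2 of 11 matched eIF3 genes did, eif-3.C (signal 72.7, rank 203) and eif-3.B (signal 45.7, rank 744), against 3.89% of all genes. None of these shares was tested against that of all genes.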

How the data were processed

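ChIP-seq peak lists of 2 libraries from L2 larvae of strain OP178 were used: 1 relaxed list per replicate, a relaxed list of both pooled, and the optimal IDR list, all in build ce11. According to the authors' deposited readmes, a relaxed list comes from its library's alignments plus another file common to both replicates, and the optimal list from the relaxed lists. The 872 optimal peaks were the 872 strongest of the pooled list, and 2 of them are mitochondrial and were left out. Per the labels, chromatin was sonicated. The aligner, the peak caller and its settings, and the IDR cutoff were not given in the sources used here. For every peak there is a signal and a −log10 q value set by the authors and deposited with it. Read depth is not in the lists and is unknown, so no counting error can be given. The ce10 lists were not used, and no coordinates were converted.

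Summits (the peak's start plus the deposited offset, 1-based) were matched to Ensembl release 115 genes of WBcel235. No peak passed a chromosome end, and the first codon of all 8 lid genes read as a start codon in the genome used. A gene was counted if a summit lay from 1000 bp upstream to 200 bp downstream of any of its 5' ends. Replicates were compared on the 870 strongest nuclear peaks of each, with summits within 100 bp taken as the same site. Words were searched on both strands within 100 bp of a summit. The assignment and word search were tested on made-up genes and sequences with known answers. Python 3.11 was used. The lid genes, the other gene lists and the words were chosen with earlier results of these data known, so nothing was tested and shares are given beside those of all genes. Named genes are all 8 members and their divergent partners, the 3 strongest and all missing members of the other proteasome groups, and the bound members of the remaining lists. In those lists 1 eIF3 name matched no gene. The values of dss-1 and rpn-6.2 are given beyond this rule.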

Additional observations from a re-analysis of the deposited data

How the results depend on the processing

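All 8 lid genes kept an optimal promoter summit with a window of 500 bp upstream to 100 bp downstream (3.16% of all genes), with 2000 bp upstream (5.12%), with coding transcripts only, and where any base of the peak counted (4.22%). Where a summit counted only for the nearest 5' end of a protein-coding gene, noncoding genes ignored, 7 did, rpn-7 being lost (2.89%), and with the stronger 435 peaks 7 did, rpn-8 being lost (2.06%). With a single replicate's strongest peaks the count was 7 to 8, and the median rank 33 to 41, against 34. With narrow peaks left out, a setting added after seeing the data, 5 kept one, since rpn-12, rpn-3 and rpn-5 have narrow peaks. Support by both replicates was 6 of 8 within 50 bp (37.8% of optimal summits), 100 bp (44.8%) or 200 bp (48.0%), and 8 with any relaxed peak (91.5%). A partner within 500 bp was found at 5 genes (9.88% of all genes) and within 2000 bp at 7 (29.2%). The full SKN-1 word was at 3 genes within 50 bp (19.0% of optimal summits) and at 4 within 170 bp (36.1%), and the shorter core at 7 of 8 (69.9%). No paired analysis was possible because there is 1 group. The number of libraries, 2, and the unknown depth limit how finely ranks can be read.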
